A study of Homo sapiens with 4 samples.

Results

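The 10 genes described here encode regulators of apoptosis from the BCL2 family: BAX, BAK1, BCL2, BCL2L1, MCL1, BID, BAD, BCL2L11, BBC3 and PMAIP1. They were taken by symbol from the table of gene counts of U251 cells, which holds 15575 genes, and all 10 have an entry. U251 is an established human glioblastoma (GBM) cell line. Its transcriptome was sequenced in 2 Ctrl libraries and 2 PRMT3-KD libraries, in which PRMT3, a protein arginine methyltransferase, was depleted by RNA interference. Per the study, both groups received lentivirus, carrying a control shRNA or an shRNA against PRMT3, and the profile is that after 72 h. The Ctrl labels also name pGreen, which they do not explain, and which PRMT3 hairpin was used for these libraries is not given in the sources used here. The cells were a bulk culture of 1 line, and nothing in the labels says whether the 2 libraries of a group came from separate cultures, so the p-values measure only the spread between these libraries, which may be technical. In the study, loss of PRMT3 was followed by assays of apoptosis, and the question asked here is what the transcripts of these regulators did in the same comparison.

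The BCL2 family decides whether the outer membrane of mitochondria stays closed. BAX and BAK1 are the effectors, which form pores in that membrane when activated and let cytochrome c out into the cytosol, where it starts the caspases. BCL2, BCL-XL (the main product of BCL2L1) and MCL1 are the guardians, which bind and restrain the effectors. The BH3-only proteins BID, BAD, BIM (BCL2L11), PUMA (BBC3) and NOXA (PMAIP1) sense stress, occupy the guardians and, in some cases, activate the effectors directly. Much of this control acts on the proteins, by cleavage, phosphorylation and degradation, and several of these genes make splice forms with opposed activities, so counts per gene do not give the balance of active proteins. GBM cells are known for high levels of guardians.

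Depth was even, with total counts of 24804250 to 29756313 per library. PRMT3 itself fell from 535 counts in either Ctrl library to 77 and 45 after knockdown, so the targeted gene matches the labels. The 2 Ctrl libraries lay very close together, where a chi-square test over 13004 genes gave 1.407 for each degree of freedom and pure counting error would give 1. The PRMT3-KD libraries lay far apart, at 66.7. Markers of other cell types were low. Their summed level was 2.91 to 5.89 CPM (normalised counts scaled to library size) for 3 of 4 leukocyte and microglial markers (higher in both Ctrl libraries), 0.246 to 0.618 CPM for 2 of 3 epithelial markers, 13.9 to 19.3 CPM for 2 of 3 neuronal markers (higher in both PRMT3-KD libraries) and 0.433 to 0.739 CPM for 3 of 3 oligodendrocyte markers (higher in both PRMT3-KD libraries); AIF1, EPCAM, RBFOX3 and the endothelial PECAM1 were not analysed here. CDH1, an epithelial cadherin, had 0 counts in both Ctrl libraries and 4 and 1 counts after knockdown. The 2 endothelial markers summed to 6.25 to 7.40 CPM in 3 libraries and to 27.9 CPM in the second PRMT3-KD library, and their part in the results was not tested. The 7 glioma and astroglial markers summed to 8660 and 8690 CPM in Ctrl and 7540 and 8070 CPM in PRMT3-KD libraries. GFAP, the astrocyte filament protein, had counts of 363 and 392 in Ctrl and of 32 and 153 after knockdown (adjusted p = 0.0958, edgeR).

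All genes were compared by edgeR's quasi-likelihood test, with p-values adjusted after Benjamini and Hochberg. Beyond counting error, the coefficient of variation between libraries was 0.0107 in Ctrl and 0.204 in PRMT3-KD cells. The test takes 1 spread for both groups, so its standard errors, intervals and adjusted p-values rest on an assumption that these values do not meet. Of the 13172 genes tested, 1441 (10.9%) passed the threshold, which asks for an adjusted p under 0.05 together with over 1.5-fold difference, 655 of them higher and 786 lower in PRMT3-KD cells. All 10 members were tested, and 1 of them passed: BAK1 rose about 2-fold, while 0 members fell past the threshold. At an adjusted p under 0.05 with any fold change, 17.3% of all genes and 3 of the 10 members passed, BAK1 and PMAIP1 higher and BAX lower. The CPM values of the groups did not overlap for 7 of the 10 members, beside 67.1% of all genes. The first and the last of these counts are near the background, and the family was not tested as a set. Fold changes were positive for 7 members and negative for 3, with a median log2 fold change of 0.25 beside 0.01 over all genes tested. Their median absolute log2 fold change was 0.392, beside 0.293 over all genes.

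**Figure D1:**
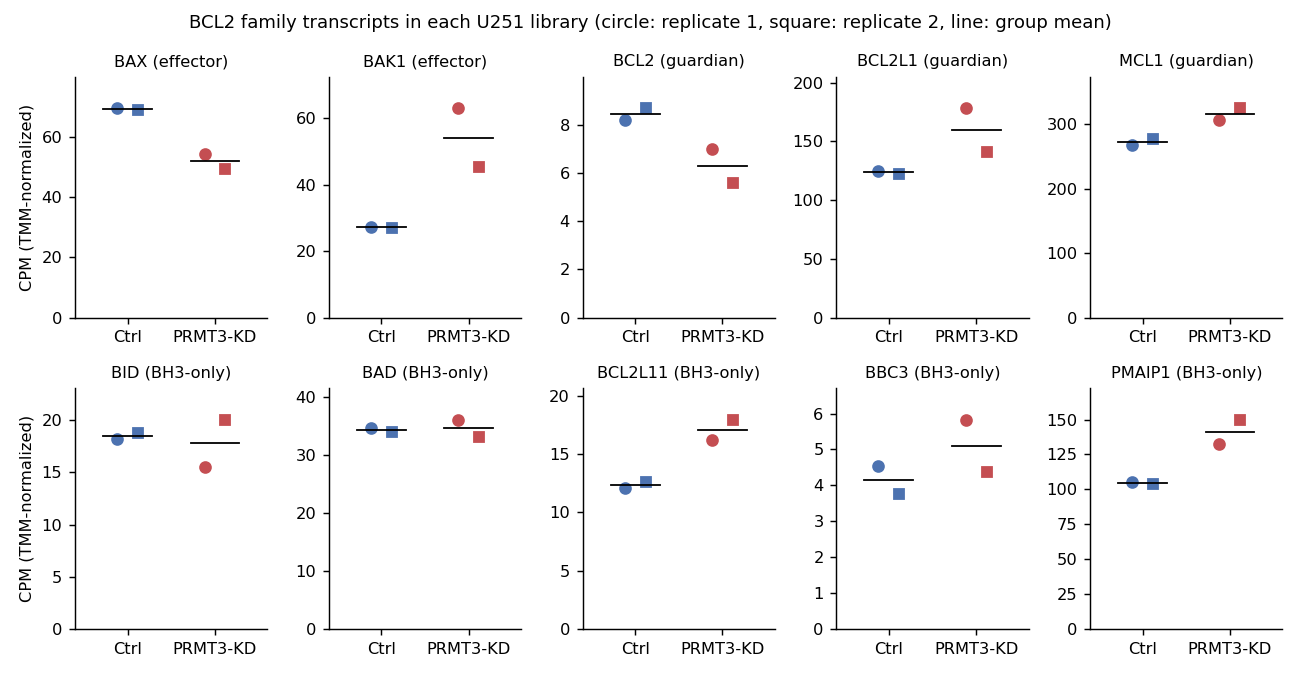
Level of each of the 10 members in each library, in CPM on an axis that starts at 0 and has its own scale for each gene, with replicate 1 as a circle, replicate 2 as a square and the group mean as a line. BAK1 goes from 27.3 and 26.9 CPM in Ctrl to 62.9 and 45.1 CPM in PRMT3-KD libraries, BAX lies lower in both PRMT3-KD libraries, and the groups of BID, BAD and BBC3 overlap.

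The effectors went in opposite directions. BAK1 (ENSG00000030110; chr6:33540324-33548070 of GRCh37, minus strand), which sits in the outer mitochondrial membrane already in healthy cells, had 27.3 and 26.9 CPM in the Ctrl libraries and 62.9 and 45.1 CPM in the PRMT3-KD libraries. Both PRMT3-KD values lay well above both Ctrl values, and the first lay above the second. The group means were 27.1 ± 0.270 CPM for Ctrl and 54.0 ± 12.5 CPM for PRMT3-KD cells (SD, n = 2 libraries in either group). The log2 fold change was 0.99 (standard error 0.180, 95% interval 0.51 to 1.47, adjusted p = 0.0348, edgeR). Against the Ctrl mean, the log2 difference was 1.21 in the first PRMT3-KD library and 0.73 in the second. BAK1 ranked 916th of 13172 genes by the size of its fold change. The call did not hold in every setting: the adjusted p of BAK1 in edgeR was 0.0523 when libraries were scaled by their totals only, 0.212 without Ctrl replicate 1 and 0.203 without Ctrl replicate 2, with log2 fold changes of 0.97, 1.002 and 0.98, and over 8 other tests, scalings and filters it lay between 5.49e-05 and 0.0523. The annotation names 2 pseudogenes of BAK1, BAK1P1 and BAK1P2, and reads shared with them would be uncertain.

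BAX (ENSG00000087088; chr19:49458072-49465055 of GRCh37, plus strand), the effector that moves from the cytosol to mitochondria, had 69.4 and 69.0 CPM in Ctrl and 54.4 and 49.5 CPM in PRMT3-KD libraries. Both PRMT3-KD values lay below both Ctrl values. The means were 69.2 ± 0.309 CPM (SD, n = 2) and 51.9 ± 3.47 CPM (SD, n = 2), a log2 fold change of -0.42 (standard error 0.0840, 95% interval -0.64 to -0.19, adjusted p = 0.0415, edgeR). This 1.33-fold decrease is under the fold threshold, and its adjusted p in edgeR was 0.0698 with library totals only, 0.0738 with the replicate number as a block, 0.447 without Ctrl replicate 1 and 0.432 without Ctrl replicate 2.

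With BAK1 higher and BAX lower, the ratio of BAK1 to BAX counts within a library went from 0.394 and 0.390 in Ctrl to 1.16 and 0.912 in PRMT3-KD libraries. The difference in the log2 ratio was 1.39, and the groups did not overlap. This ratio was chosen after its values were seen, and its exact permutation p (two-sided) was 0.333, the smallest that 2 against 2 libraries allow. The summed level of both effectors was 96.8 and 95.9 CPM in Ctrl and 117 and 94.6 CPM in PRMT3-KD libraries, so the sums of the groups overlapped.

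The 250 bases before the RefSeq transcription start (GRCh38.p14) are shown for the effectors, because these genes went in opposite directions. The first is chr6:33580277-33580526 on the minus strand and the second is chr19:48954625-48954874 on the plus strand, each printed 5′ to 3′ in its gene's direction. Capitals mark E-boxes (CACGTG, the site bound by MYC and related factors).
BAK1: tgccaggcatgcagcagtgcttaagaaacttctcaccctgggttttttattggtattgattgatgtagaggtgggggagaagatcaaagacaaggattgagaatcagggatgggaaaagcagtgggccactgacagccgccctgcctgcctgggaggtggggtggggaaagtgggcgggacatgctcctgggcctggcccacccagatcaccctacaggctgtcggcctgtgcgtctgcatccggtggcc
BAX: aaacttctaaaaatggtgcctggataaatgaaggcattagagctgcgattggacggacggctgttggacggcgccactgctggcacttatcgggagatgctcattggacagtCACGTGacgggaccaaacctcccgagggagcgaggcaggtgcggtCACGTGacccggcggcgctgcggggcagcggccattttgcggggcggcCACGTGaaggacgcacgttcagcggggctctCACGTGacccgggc
Beside this E-box, the other sequences searched on both strands were the core of a HIF site (ACGTG, which every E-box contains), a site of AP-1 (TGANTCA), a site of STAT factors (TTCNNNGAA) and a site of FOXO factors (GTAAACA). The BAX window holds the E-box 4 times and the HIF core 9 times, where each E-box holds the HIF core on both strands. The BAK1 window holds none of the searched sequences. Of 35116 RefSeq promoters of this length, 6.34% hold the E-box and 18.5% hold the HIF core. A match is a description of the letters and not a bound site, and a window with no match says nothing about the factor.

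Of the 3 guardians, 0 passed the threshold, with positive fold changes for MCL1 and BCL2L1 and a negative one for BCL2. MCL1 (ENSG00000143384; chr1:150533371-150552214), a guardian whose protein turns over within minutes to hours and has to be made constantly, was the member with the most counts. It had 269 and 277 CPM in Ctrl and 306 and 325 CPM in PRMT3-KD libraries. The groups did not overlap, and the log2 fold change was 0.21 (standard error 0.0728, 95% interval 0.01 to 0.40, adjusted p = 0.116, edgeR).

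BCL2L1 (ENSG00000171552; chr20:30252255-30311792), whose long splice form is BCL-XL and whose short form promotes death, had 125 and 122 CPM in Ctrl and 178 and 141 CPM in PRMT3-KD libraries. The groups did not overlap, but the PRMT3-KD libraries differed from each other by 10.7 times the counting error, the widest gap among the members. The log2 fold change was 0.37 (standard error 0.131, 95% interval 0.02 to 0.72, adjusted p = 0.1205, edgeR). Exons of ABALON, a long noncoding RNA on the opposite strand, cover 41.3% of the exon length of BCL2L1, and whether counting used strand is not given in the sources used here, so reads of these genes cannot be told apart.

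BCL2 (ENSG00000171791; chr18:60790579-60987361), the founding guardian, was low, with 8.19 and 8.69 CPM in Ctrl and 7.01 and 5.60 CPM in PRMT3-KD libraries. Both PRMT3-KD values lay below both Ctrl values, and the log2 fold change was -0.42 (standard error 0.173, 95% interval -0.88 to 0.04, adjusted p = 0.158, edgeR). Without PRMT3-KD replicate 1 it was -0.59, and without PRMT3-KD replicate 2 it was -0.27. Both fits take the single PRMT3-KD library that remains to vary like the Ctrl pair. BAX and BCL2 differed to the same extent, so the ratio of BAX to BCL2 counts stayed between 7.76 and 8.84 in all 4 libraries. It was 8.48 and 7.94 in Ctrl and 7.76 and 8.84 in PRMT3-KD libraries, and the groups overlapped.

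**Figure D2:**
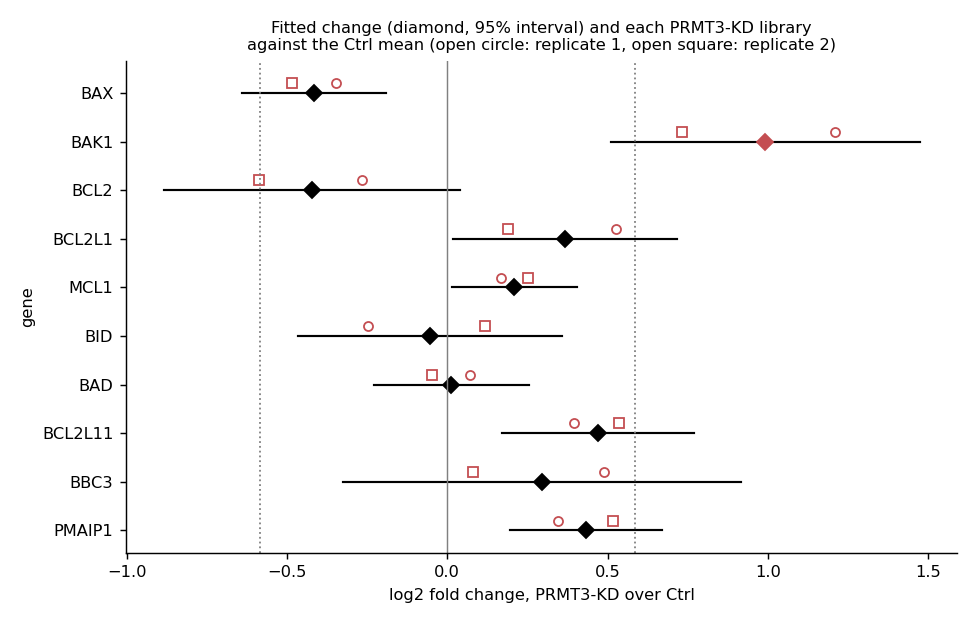
Log2 fold change of PRMT3-KD over Ctrl for each member (diamond) with its 95% interval from the edgeR fit (bar), and each PRMT3-KD library against the Ctrl mean (open circle, replicate 1; open square, replicate 2); dotted lines mark a 1.5-fold change. Of the 10 members, only BAK1 (red, 0.99) lies past a dotted line with an adjusted p under 0.05, and the 2 PRMT3-KD libraries lie on opposite sides of 0 for BID and BAD.

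Among the 5 BH3-only genes, 0 passed the threshold and 1 had an adjusted p under 0.05. PMAIP1 (ENSG00000141682; chr18:57567228-57571537), which encodes NOXA, a p53 and stress-response target that binds chiefly MCL1, had 106 and 104 CPM in Ctrl and 133 and 150 CPM in PRMT3-KD libraries. Both PRMT3-KD values lay above both Ctrl values. The means were 105 ± 1.33 CPM (SD, n = 2) and 141 ± 12 CPM (SD, n = 2), a log2 fold change of 0.43 (standard error 0.0888, 95% interval 0.20 to 0.67, adjusted p = 0.0424, edgeR), which is 1.35-fold and under the fold threshold. The adjusted p was 0.0704 with the replicate number as a block, 0.422 without Ctrl replicate 1 and 0.445 without Ctrl replicate 2 (edgeR). The ratio of PMAIP1 to MCL1 counts was 0.393 and 0.374 in Ctrl and 0.434 and 0.461 in PRMT3-KD libraries, without overlap.

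BCL2L11 (ENSG00000153094; chr2:111876955-111926021), which encodes BIM, a binder of all guardians and a target of FOXO factors, had 12.1 and 12.6 CPM in Ctrl and 16.3 and 17.9 CPM in PRMT3-KD libraries. Both PRMT3-KD values lay above both Ctrl values, and the PRMT3-KD libraries differed by only 1.51 times the counting error. The log2 fold change was 0.47 (standard error 0.112, 95% interval 0.17 to 0.77, adjusted p = 0.0559, edgeR), just short of the adjusted p threshold. The ratio of BCL2L11 to MCL1 counts was 0.0451 and 0.0454 in Ctrl and 0.0531 and 0.0553 in PRMT3-KD libraries. Of its exon length, 10.8% is covered by exons of MIR4435-2HG, a long noncoding RNA on the opposite strand.

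BBC3 (ENSG00000105327; chr19:47724079-47736023), which encodes PUMA, another p53 target, had 4.55 and 3.75 CPM in Ctrl and 5.83 and 4.37 CPM in PRMT3-KD libraries. With 103 to 148 counts per library it was the member with the fewest counts, its groups overlapped, and the log2 fold change was 0.30 (standard error 0.232, 95% interval -0.32 to 0.91, adjusted p = 0.412, edgeR). This interval holds both no change and a 1.5-fold increase. BID (ENSG00000015475; chr22:18216904-18257536), which caspase-8 cleaves to link death receptors to mitochondria, had 18.2 and 18.8 CPM in Ctrl and 15.5 and 20.03 CPM in PRMT3-KD libraries. One PRMT3-KD library lay below and the other above both Ctrl libraries, and the log2 fold change was -0.05 (95% interval -0.46 to 0.36, adjusted p = 0.829, edgeR). BAD (ENSG00000002330; chr11:64037302-64052176), which survival kinases hold inactive by phosphorylation, had 34.7 and 33.9 CPM in Ctrl and 36.1 and 33.2 CPM in PRMT3-KD libraries. The log2 fold change was 0.01 (95% interval -0.23 to 0.25, adjusted p = 0.935, edgeR), an interval that lies within a 1.5-fold change in either direction. Exons of GPR137 on the opposite strand cover 23.7% of the exon length of BAD.

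The promoters of the BH3-only genes BCL2L11 and PMAIP1, which lay next to each other in fold change, are shown for comparison with those of the effectors. The first is chr2:111120664-111120913 and the second chr18:59899746-59899995 of GRCh38.p14, both on the plus strand, and capitals mark GTAAACA, the FOXO sequence.
BCL2L11: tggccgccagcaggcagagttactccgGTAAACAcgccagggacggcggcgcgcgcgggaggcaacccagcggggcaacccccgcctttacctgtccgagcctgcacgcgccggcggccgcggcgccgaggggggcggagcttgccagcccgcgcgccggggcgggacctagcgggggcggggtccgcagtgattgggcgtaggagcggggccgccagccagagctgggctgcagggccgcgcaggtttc
PMAIP1: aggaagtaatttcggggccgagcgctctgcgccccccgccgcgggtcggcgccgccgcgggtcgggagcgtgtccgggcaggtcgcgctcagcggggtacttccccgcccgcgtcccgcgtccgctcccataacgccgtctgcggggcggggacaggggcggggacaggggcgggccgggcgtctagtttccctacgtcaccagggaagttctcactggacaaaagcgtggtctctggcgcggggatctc
The BCL2L11 window holds GTAAACA once, and 2.98% of all promoters hold it. The PMAIP1 window holds none of the searched sequences. Of the 10 members, 9 matched the RefSeq promoter table, with 15 starts in all. Beside BAX, the E-box was found once in BBC3 and once in 2 of the 5 starts of BID, and the AP-1 sequence, which 6.57% of promoters hold, was found in BBC3. The windows of BAD, BCL2 and BCL2L1 hold none of the searched sequences, and the STAT sequence was found in 0 members beside 6.57% of promoters. MCL1 was not matched.

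Levels were compared between genes as CPM per kilobase of the canonical transcript. In Ctrl cells the order was BAX (87.0 ± 0.423; SD, n = 2, as for all levels in this paragraph), MCL1 (69.1 ± 1.48), PMAIP1 (55.1 ± 0.722), BCL2L1 (48.0 ± 0.707), BAD (36.9 ± 0.651), BAK1 (12.5 ± 0.129), BID (8.48 ± 0.181), BCL2L11 (2.42 ± 0.0617), BBC3 (2.25 ± 0.308) and BCL2 (1.23 ± 0.0505). Thus the guardian transcripts of these cells were chiefly those of MCL1 and BCL2L1, and BCL2 itself stood last. BCL2L11 and BBC3 overlapped between libraries, and all other neighbours in the order were separated. In PRMT3-KD cells the order began with MCL1 (79.8 ± 3.35), PMAIP1 (74.4 ± 6.34), BAX (65.3 ± 4.33) and BCL2L1 (61.9 ± 10.1), of which MCL1 overlapped PMAIP1 and BAX overlapped BCL2L1. BAK1 stayed in the sixth place at 24.9 ± 5.77. The place of BAX rests on the length used: with all exons of a gene merged, it stood in place 4 in Ctrl and 6 in PRMT3-KD cells, PMAIP1 came first in both, and BAK1 moved from place 6 to 4.

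**Figure D3:**
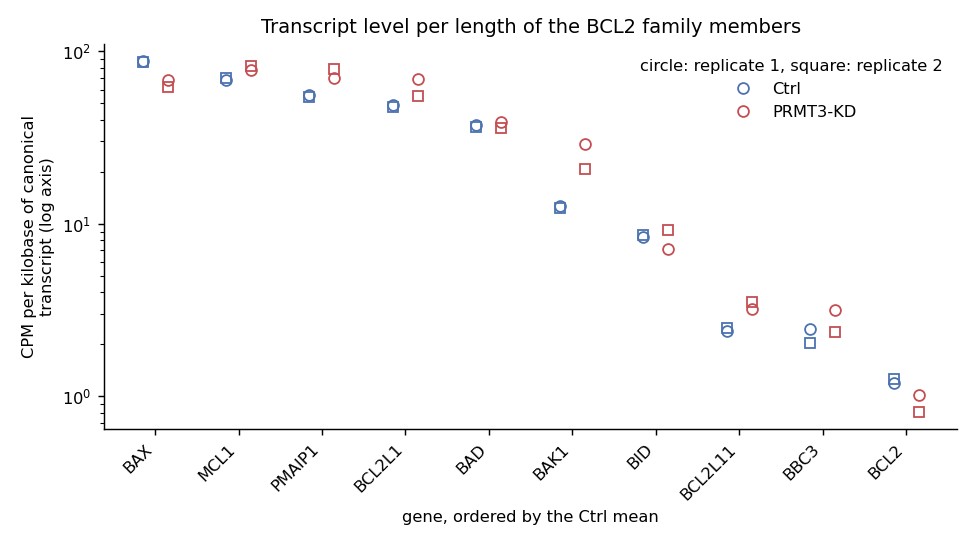
Level of each member in each library as CPM per kilobase of the canonical transcript, on a log axis, with genes ordered by the Ctrl mean (blue, Ctrl; red, PRMT3-KD; circle, replicate 1; square, replicate 2). The Ctrl levels run from 87.0 for BAX to 1.23 for BCL2, and BAK1 is the gene with the widest gap between the groups.

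By role, the summed level of the 3 guardians was 402 and 408 CPM in Ctrl and 491 and 471 CPM in PRMT3-KD libraries, and that of the 5 BH3-only genes was 175 and 173 CPM in Ctrl and 206 and 225 CPM in PRMT3-KD libraries. Both sums were higher in both PRMT3-KD libraries. The ratio of BH3-only genes to guardians was 0.436 and 0.423 in Ctrl and 0.4205 and 0.478 in PRMT3-KD libraries, so the groups overlapped. The ratio of effectors to guardians was 0.241 and 0.235 in Ctrl and 0.239 and 0.201 in PRMT3-KD libraries, also with overlap, and the difference in its log2 was -0.12. Summed per kilobase of the canonical transcript instead, where the short BAX transcript weighs more, the ratio of effectors to guardians was 0.849 and 0.834 in Ctrl and 0.659 and 0.602 in PRMT3-KD libraries, a difference in log2 of -0.42 with no overlap. That value rests on the length used, as BAX has 795 bases in the canonical transcript and 2587 with all exons merged. The ratio was not computed with merged exons. Without MCL1 among the guardians, the ratio of summed CPM was 0.728 and 0.732 in Ctrl and 0.634 and 0.645 in PRMT3-KD libraries, a difference in log2 of -0.19, also with no overlap. These sums and ratios carry no test, and counts per gene in a bulk culture cannot tell fewer cells in a state from less RNA per cell.

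Agreement between replicates differed between the groups for these genes as for the whole table. Between the Ctrl libraries, 0 of 10 members differed by more than 2 times the counting error of their counts, and the widest ratio was 1.86. Between the PRMT3-KD libraries 8 of 10 did, BCL2L11 and BAD being the others. The gap was -0.48 on the log2 scale for BAK1 and 0.37 for BID. For these 8 genes the spread between the PRMT3-KD libraries was wider than depth alone gives.

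The genes whose profile over the 4 libraries was most like that of BAK1, by Euclidean distance between centred log2 CPM values among 13171 genes, were CCDC85A (0.0132), ACKR2 (0.0456) and AOX1 (0.0515), which encodes aldehyde oxidase. AOX1 had 6.53 and 6.40 CPM in Ctrl and 15.2 and 10.4 CPM in PRMT3-KD libraries, with a log2 fold change of 0.98 (adjusted p = 0.0515, edgeR). The likeness is over 4 values per gene.

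The list called here the rest of the BCL2 family is broad. It also holds BNIP1 and BNIP2, which are named for binding BCL2 rather than for belonging to the family. This list showed 0 genes past the threshold of 11 tested, with edgeR (beside 10.9% of all genes) and with DESeq2 (beside 1834 of 13172 genes). In edgeR, 4 had an unadjusted p under 0.05, beside 37.6% of all genes tested, and 1 had an adjusted p under 0.05, beside 17.3%. That gene was BNIP3, a hypoxia-induced receptor for the removal of mitochondria, with 96.1 and 90.1 CPM in Ctrl and 71.5 and 67.5 CPM in PRMT3-KD libraries (log2 fold change -0.42, adjusted p = 0.0374, edgeR). Its adjusted p in edgeR was 0.0586 with library totals only and 0.0666 with the replicate number as a block. The annotation names 44 pseudogenes of BNIP3, and reads shared with them would be uncertain. BNIP3L, a close relative of BNIP3, was at 0.04 (adjusted p = 0.839, edgeR). BOK, an effector related to BAX and BAK1, had 19.8 and 19.0 CPM in Ctrl and 21.0 and 31.1 CPM in PRMT3-KD libraries, a log2 fold change of 0.43 (adjusted p = 0.220, edgeR). Its difference came mainly from the second PRMT3-KD library. Without PRMT3-KD replicate 1 the log2 fold change of BOK was 0.68, and without PRMT3-KD replicate 2 it was 0.11. BCL2L2, the guardian BCL-W, was at 0.20 (adjusted p = 0.277), BCL2L13 at 0.29 (0.0569), BNIP2 at 0.40 (0.0919), BNIP1 at 0.04 (0.908) and BCL2L12 at 0.02 (0.947), all as log2 fold changes with the adjusted p of edgeR. The signs of the last 2 and of BNIP3L turn when single libraries are left out. The guardian gene BCL2A1 had 0 to 2 counts and the BH3-only gene HRK 4 to 41 counts per library, so both were removed by the filter on low counts, while BCL2L10 and BCL2L14 were not analysed here. The median of the 11 genes was 0.20.

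Downstream of the mitochondria, 1 of 14 genes listed under caspase activation was higher past the threshold, beside 655 of all 13172 genes tested. The list is broad and also holds caspase inhibitors, a caspase substrate and proteins such as AIFM1, which is not an activator of caspases. AIFM1, a mitochondrial flavoprotein released in cell death that also serves respiratory chain assembly, rose from 85.2 and 86.9 CPM in Ctrl to 134 and 138 CPM in PRMT3-KD libraries (log2 fold change 0.66, adjusted p = 0.0180, edgeR). The 2 libraries of each group lay close together. Of the other genes of this list, PARP1, a caspase substrate, at -0.54 (adjusted p = 0.0208, edgeR), and APAF1, the scaffold of the apoptosome, at -0.42 (adjusted p = 0.0440, edgeR), were lower by under 1.5-fold, and they were chosen after their values were seen.

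Of 7 genes of the outer membrane platform, 1 passed, beside 10.9% of all genes tested. TOMM22, a receptor of the outer membrane import complex, fell from 75.3 and 76.9 CPM in Ctrl to 47.2 and 44.9 CPM in PRMT3-KD libraries (log2 fold change -0.72, adjusted p = 0.0178, edgeR). Of 14 genes for regulators of the family, 3 passed in edgeR, all higher, beside 10.9% of all genes in either direction. This list and the platform were not tested as sets. BTRC, a substrate receptor of a ubiquitin ligase, rose from 30.6 and 31.0 CPM to 61.2 and 60.3 CPM (log2 fold change 0.98, adjusted p = 0.0142, edgeR), about the fold of BAK1 with a far smaller spread. STAT3, a transcription factor with MCL1 and BCL2L1 among its targets, rose from 208 and 213 CPM to 333 and 380 CPM (log2 fold change 0.76, adjusted p = 0.0201, edgeR). USP9X, a deubiquitinase that stabilises MCL1 protein, rose from 225 and 224 CPM to 308 and 368 CPM (log2 fold change 0.59, adjusted p = 0.0356, edgeR), only just past 1.5-fold. USP9X was under that fold with library totals only (0.56), with the replicate number as a block (0.58) and without PRMT3-KD replicate 2 (0.45). The calls of AIFM1, TOMM22, BTRC, STAT3 and USP9X were all lost in edgeR when either Ctrl library was left out, as 0 of all genes then passed, with 1842 and 1868 genes at an unadjusted p under 0.05. The lowest gene of this list was E2F1, a cell cycle transcription factor that can induce BH3-only genes, with 113 and 111 CPM in Ctrl and 70.8 and 44.7 CPM in PRMT3-KD libraries. The log2 fold change of E2F1, -0.95, missed the adjusted p threshold in edgeR (adjusted p = 0.0587). E2F1 passed with DESeq2 (adjusted p = 0.000587), with limma-voom (adjusted p = 0.00526) and with the replicate number as a block (adjusted p = 0.0277, edgeR). It was chosen after its values were seen. TP73, a p53 relative, was at -0.46 (adjusted p = 0.0424, edgeR), under 1.5-fold and chosen after its value was seen, and TRIM17 was not analysed here.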

How the data were processed

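Total RNA from U251 cells was sequenced in 2 Ctrl and 2 PRMT3-KD libraries. The authors deposited whole-number counts per gene without normalization; per the study, reads were aligned to hg19 with TopHat and counted with Cufflinks, and the submitters' processing notes also name CASAVA and DESeq2, all without versions. The gene annotation and strand setting are not given in the sources used here.

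The table has 15576 entries. After removal of 1 duplicate, 8 symbols still had several identifiers. Positions are from GENCODE 44 lifted to GRCh37 (hg19), which holds 99.9% of the identifiers, and promoters from RefSeq on GRCh38.p14. Library totals of 24804250 to 29756313 counts limit the precision of low genes, and PCR duplicates were not separable. In R 4.3.3, edgeR 4.0.16 was run on all 4 libraries with filterByExpr (minimum count 10, minimum total 15), TMM scaling and the quasi-likelihood test (glmQLFit, glmQLFTest), with Benjamini-Hochberg adjustment across 13172 genes. This fit takes 1 spread for both groups. CPM used TMM-scaled library sizes, and intervals of fold changes are 95% intervals from the fit. The distance between profiles used log2 CPM with a prior count of 2. Python 3.11.15, pandas 2.3.3, NumPy 2.4.6 and SciPy 1.17.1 gave ratios, sequences and counts of motifs.

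The members and the 4 other lists were chosen with earlier results of these data known, and so were the cell type markers. Named were all members, PRMT3, genes of the other lists past the threshold (at most 4 a list), genes on the list of the rest of the family with at least 10 CPM, and the 3 genes most like each member past the threshold. Exceptions are named where they stand. Results of 1 gene of the caspase activation list are not reported here, and the comparison itself counts only the increases in that list, while numbers under other settings count both directions. The alternatives were DESeq2 1.42.0, limma-voom (limma 3.58.1) with a variance weight for each group, upper-quartile scaling, DESeq2 size factors in edgeR, library totals only, the replicate number as a block, no filter on low counts, a filter of 10 counts in each library, each library left out, and no fold or a 2-fold threshold. The tests were tried on simulated counts first. The test for members at any fold, the permutation test of BAK1 to BAX and the levels with merged exons were added after the data were examined.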

Additional observations from a re-analysis of the deposited data

How the results depend on the processing

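Over 8 other tests, scalings, filters and the replicate block, 78 of 80 fold changes of members kept their direction and their side of the threshold, BAD turning to -0.0163 and BAK1 missing the threshold with library totals only. Of BCL2 family members, 1 passed in the main test, 0 with library totals only (beside 1275 of all genes) or over 2-fold and 3 with no fold threshold. The call of BAK1 was lost without either Ctrl library. With single libraries left out, the log2 fold change ran from 0.74 to 1.21 for BAK1 and from -0.59 to -0.27 for BCL2. At an adjusted p under 0.05 with any fold, 3 members passed in the main test, beside 2278 of 13172 genes. With limma-voom 4 members passed, BCL2L1 being the added one, beside 2828 genes. With library totals only 1 (PMAIP1) passed, beside 1725 genes, and with the replicate block 1 (BAK1), beside 1656 genes. The replicate numbers share only a number: the differences between replicates of the 2 groups had a correlation of 0.0379 across genes, and there are only 2 pairs. Of all genes, 2278 passed with no fold threshold, 512 over 2-fold and 0 to 3066 with libraries left out (3066 without PRMT3-KD replicate 1, 2989 without PRMT3-KD replicate 2, 0 without either Ctrl library); such fits take the single library to vary like the other group. The numbers with libraries left out were 0 to 3 for the rest of the family, 0 to 4 for caspase activation, 0 to 1 for the outer membrane platform and 0 to 4 for the regulators, counting both directions; with no fold threshold the rest of the family had 1 and caspase activation 4, and over 2-fold caspase activation, the platform and the regulators each had 0. The difference in the log2 ratio of effectors to guardians moved from -0.12 to -0.42 per kilobase of the canonical transcript, and was not computed with merged exons. Directions reversed when single libraries were left out for BID (-0.25 to 0.12), BAD (-0.0466 to 0.0676), BNIP3L (-0.14 to 0.20), BNIP1 (-0.26 to 0.29) and BCL2L12 (-0.24 to 0.24), each lowest and highest without one or the other PRMT3-KD library, and for BCL2L12 with library totals only (-0.0009) and with limma-voom (-0.0054). The cause of these changes was not tested. Depth limits BBC3 and BCL2, which have 103 to 239 counts per library.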
